A study of Bos taurus with 12 samples.

Results

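Peaks of N6-methyladenosine (m6A) that the authors annotated to stop codons were examined in bovine oocytes at metaphase of the second meiotic division (MII) and at the germinal vesicle stage (GV), where the oocyte is arrested in prophase of the first division. A peak was a member where its deposited annotation read stop codon. This gave 1377 of the 22298 peaks of the MII list, 1322 of the 14222 peaks of the GV list and 697 of the 8682 peaks of the table that sets MII against GV. The 2 lists together named 2135 genes, all protein-coding, of which 554 had a stop codon peak at both stages, 820 at MII only and 761 at GV only.

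m6A is written on messenger RNA by the METTL3 and METTL14 complex with its adaptor WTAP, is removed by FTO and ALKBH5, and is bound by readers such as the YTH domain proteins. In mammalian mRNA it is known to gather in long internal exons and around the stop codon and the start of the 3′ untranslated region. YTHDF2, a reader, hastens the decay of its targets, and maternal mRNA that the growing oocyte stored is translated or degraded as meiosis proceeds.

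The labels give in vitro culture for both stages and name no strain, animal age or treatment. The 12 libraries were 3 inputs of poly(A) RNA and 3 immunoprecipitates with an m6A antibody from MII, and likewise from GV. Input levels were deposited as FPKM (fragments scaled to transcript length and library total) for the 6 input libraries, while peaks came as 1 list per stage, so a peak has no replicate spread here. The labels do not say whether a stage's libraries stem from different animals, so the p-values speak only of the variation among the libraries at hand, possibly technical.

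Input libraries correlated at 0.983 within MII and at 0.986 to 0.987 within GV (Spearman, across genes), against 0.912 to 0.918 between the stages. All 16 oocyte markers were above 1 FPKM, with sums of 5052 to 5408 FPKM in MII libraries and 4313 to 4396 FPKM in GV libraries. Of 21 markers of cumulus and granulosa cells, 14 were in the table, with sums of 210 to 216 FPKM in MII and 212 to 224 FPKM in GV, most of it STAR. The receptor gene FSHR was at 0 in the 3 MII libraries and at 0.140 FPKM or less in GV libraries. Without STAR the other markers moved both ways, with CLU at 5.53 to 7.70 FPKM at MII and 2.16 to 2.41 FPKM at GV, GREM1 at 4.77 to 7.05 and 2.26 to 2.54 FPKM, PTGS2 at 5.09 to 7.32 and 14.5 to 15.7 FPKM, HAS2 at 20.7 to 22.3 and 32.7 to 35.4 FPKM, and VIM at 0 to 0.997 and 5.61 to 7.25 FPKM. Of 6 markers of blood and immune cells 3 were in the table, with sums of 38.2 to 38.9 FPKM in MII and 31.2 to 33.1 FPKM in GV. The part of other cells in the comparisons was not tested. Of the 2130 stop codon genes with an FPKM value, 9 to 18 were listed at 0 in an MII library and 83 to 85 in a GV library. Poly(A) selection ties these levels to RNA that the beads bound, and fewer molecules cannot be told apart from shorter tails.

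Stop codons took a smaller share of the MII list than of the GV list. They held 6.18% of MII peaks (95% exact interval 5.86% to 6.50%) and 9.30% of GV peaks (8.82% to 9.79%), where the intervals cover counting error only. Start codon peaks had the opposite order, with 10.5% at MII and 5.90% at GV, and the share of 3′ UTR peaks was 14.4% at MII and 14.0% at GV. Since the MII list was longer, the number of stop codon peaks was nearly the same at both stages. Among genes with any peak, 14.2% had one over the stop codon at MII and 19.6% at GV.

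The peaks over stop codons were among the more enriched ones of each list. Enrichment is the authors' log2 ratio of immunoprecipitate over input. Its median was 1.91 at MII, with quartiles of 1.37 and 2.60, and 2.94 at GV, with quartiles of 2.33 and 3.72. Peaks of all other classes had medians of 1.66 at MII and 2.56 at GV. Among the other classes of protein-coding genes with over 100 peaks a stage, start codons had 1.86 at MII and 2.76 at GV, the 5′ UTR 1.75 and 2.56, the 3′ UTR 1.68 and 2.70, and other exonic peaks 1.59 and 2.56. The smaller class of exonic peaks in noncoding RNAs had 2.15 at MII (223 peaks), above stop codons, and 2.78 at GV (112 peaks). The authors' FDR was under 0.05 for 1236 of 1377 MII stop codon peaks (89.8%), where 82.6% of all MII peaks passed. At GV 1093 of 1322 passed (82.7%), where 75.9% of all GV peaks did.

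**Figure D1:**
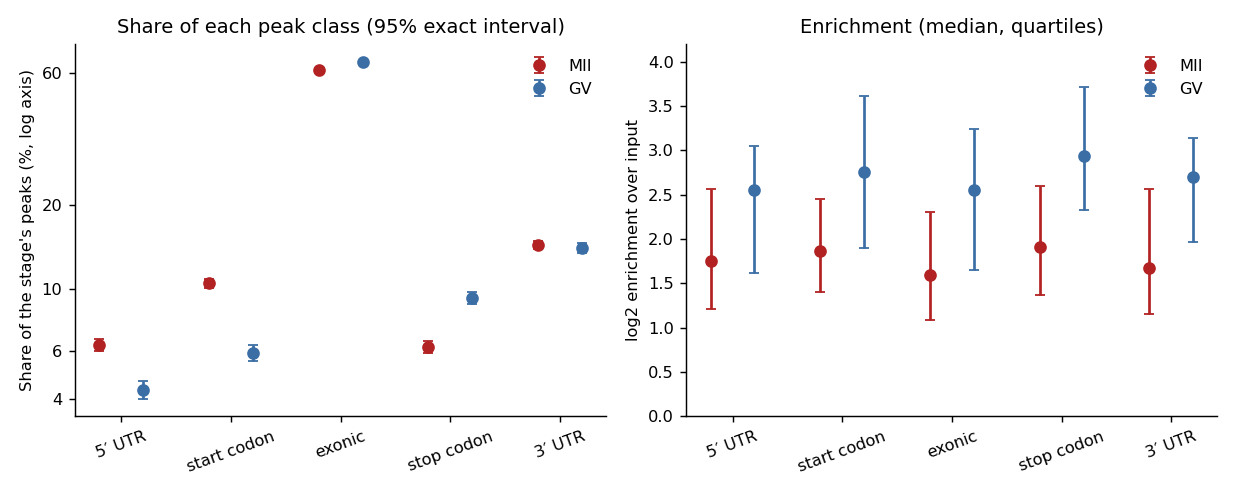
Share of each annotation class among the peaks of a stage (left, percent on a log axis, with 95% exact intervals) and log2 enrichment of its peaks over input (right, median with quartiles), MII left of GV in each class. Stop codons held 6.18% of MII peaks and 9.30% of GV peaks, and had the highest median of the 5 classes drawn at each stage, 1.91 at MII and 2.94 at GV.

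Part of this order went with the extent of the peaks. Spans are genomic and include introns, and stop codon peaks had a median span of 1455 bp at MII and 716 bp at GV, against 900 bp and 517 bp over the other classes. Among peaks spanning at most 250 bp, the 317 stop codon peaks of MII had a median enrichment of 1.42 and all such MII peaks 1.41. The 303 of GV had 2.33 and all such GV peaks 2.30, so the stop codon class did not stand above the rest among narrow peaks. Within the stop codon class the median reached 2.23 at MII and 3.46 at GV for peaks over 10000 bp. In the genes of lowest input level, by quartile, it was 2.57 at MII and 2.94 at GV, and in those of highest level 1.76 at MII and 2.66 at GV. The order was not steady, since the second quartile group had 1.74 at MII and 3.20 at GV and the third 1.82 and 2.96. The share at an FDR under 0.05 ran the other way, with 65.1% and 99.7% for the lowest and highest levels at MII and 52.6% and 97.6% at GV.

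Narrow stop codon peaks lay near the end of the gene. Their centres were a median of 700 bp from the annotated 3′ end at MII (quartiles 299.5 and 1310.5 bp) and 774 bp at GV (343 and 1512 bp). Within 1000 bp of that end lay 64.4% of them at MII and 58.1% at GV. Narrow 3′ UTR peaks were at a median of 671 bp at MII and 659 bp at GV, so the deposited classes overlapped in position along the gene. Among all stop codon peaks, 126 at MII and 141 at GV reached the 3′ end of the gene. The 5′ end was reached by 103 MII peaks (7.48%) and by 26 GV peaks (1.97%), and 10 MII peaks and no GV peak spanned the whole gene.

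**Figure D2:**
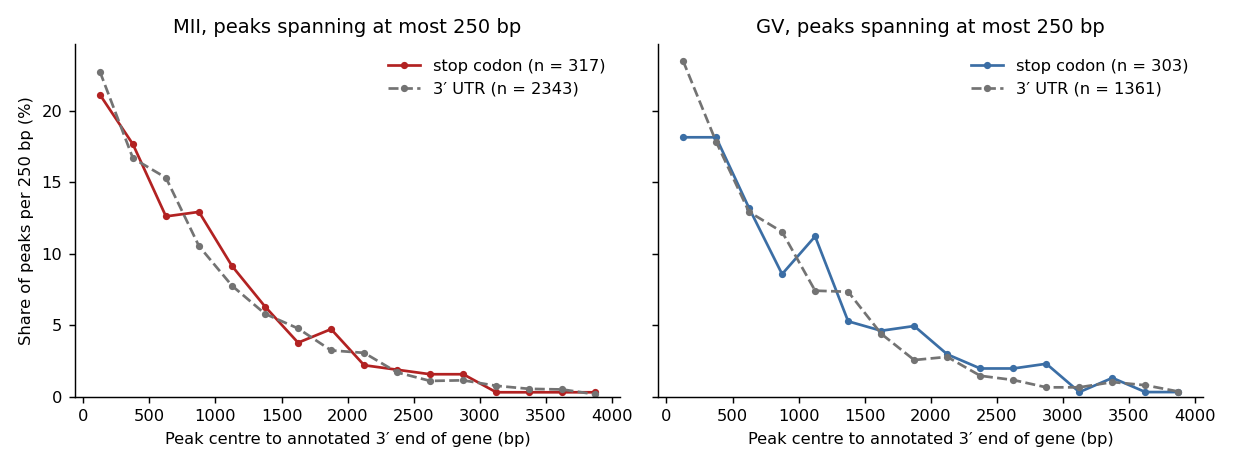
Distance from the peak centre to the annotated 3′ end of the gene for peaks spanning at most 250 bp, in bins of 250 bp out to 4000 bp, as a share of the peaks of that class (MII left, GV right). Solid lines show stop codon peaks and dashed lines 3′ UTR peaks, and both are most frequent within the first 500 bp at each stage.

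Most of these genes carried 1 stop codon peak. Only TBL1XR1, WDR20 and KMT5B had more than 1 at MII, and FNDC5, EIF4G3, KDM5A, NEK2, KLHL25, KLHL18 and KMT5B did at GV. The stop codon peak was the only peak of any class in 375 MII genes (27.3%) and in 439 GV genes (33.4%). Where a gene had several peaks, the one over the stop codon was the most enriched in 421 of 999 genes at MII (42.1%) and in 448 of 876 genes at GV (51.1%).

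The strands were unequal at MII. Of the MII stop codon peaks 864 lay in genes on the plus strand and 513 in genes on the minus strand, which is 62.7% plus (60.1% to 65.3%), while at GV 633 were plus and 689 minus, 47.9% plus (45.2% to 50.6%). The other 4 main classes had 54.9% (start codon) to 59.6% (3′ UTR) on the plus strand at MII and 46.8% (3′ UTR) to 61.2% (5′ UTR) at GV. The plus share was higher at MII also in the 3′ UTR, at 59.6% against 46.8% at GV, and in other exonic peaks, at 57.4% against 50.8%. It was lower at MII for start codons, at 54.9% against 59.6% at GV, and for the 5′ UTR, at 57.1% against 61.2%. Counted over tested protein-coding genes, 14.7% of plus strand genes and 8.65% of minus strand genes had a stop codon peak at MII. At GV the shares were 10.9% of plus strand genes and 12.3% of minus strand genes. Strand thus moved with the stage, though not in the same direction in all classes, and its part in the comparisons below was not tested. By chromosome the share of tested genes with an MII stop codon peak ran between 5.50% on chromosome 23 (20 of 364) and 17.9% on chromosome 6 (56 of 313). For GV peaks it ran between 6.93% on chromosome 29 (23 of 332) and 15.3% on chromosome 9 (43 of 281). None of the 37 mitochondrial genes tested had one. The counts by chromosome take in all tested genes, also those that do not code for protein and so could not have a stop codon peak.

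How many stop codon peaks met a peak of the other stage depended on the overlap asked for. Of the MII ones 804 (58.4%) shared 1 bp or more of the same strand with a GV peak of any class, 555 (40.3%) overlapped a GV stop codon peak, and 573 (41.6%) overlapped none. Of the GV ones 875 (66.2%) overlapped an MII peak of any class, 556 (42.1%) an MII stop codon peak, and 447 (33.8%) none. At a reciprocal overlap of 50% the shares meeting any peak were 29.3% at MII and 32.8% at GV, and among narrow stop codon peaks 36.9% and 39.6%. Peaks of other classes overlapped a peak of the other stage in 38.7% of cases at MII and in 63.9% at GV. The peaks without a partner were narrower, with a median span of 642 bp at MII and 300 bp at GV. Their genes had lower input levels, with medians of 16.1 FPKM for the MII peaks and 8.81 FPKM for the GV peaks, against 26.7 and 27.0 FPKM where stop codon peaks met.

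Many genes with a stop codon peak at 1 stage only had a peak of another class at the other stage. Of the 820 genes with a stop codon peak at MII only, 460 had a GV peak of another class and 360 had no GV peak. Of the 761 with one at GV only, 640 had an MII peak of another class and 121 had no MII peak. In the 554 genes with one at both stages the median enrichment was 1.99 at MII and 3.04 at GV, and it was higher at MII in 119 genes and higher at GV in 435. The whole lists differ in the same direction, since their medians were 1.67 at MII and 2.62 at GV. After each list's median was subtracted, 264 of the 554 genes were higher at MII. Over the 5988 genes with any peak in both lists, MII was higher in 1660 and GV in 4321, with a median difference (MII minus GV) of −0.71, against −1.04 for the 554 stop codon genes.

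The most enriched stop codon peak had 5.15 at MII and 8.11 at GV. Coordinates are those of the files, counted from 1, and no genome build is named in the labels or headers. At MII the highest value was that of RALB (ENSBTAG00000032021), a small GTPase that acts with the exocyst, at 5.15 over 71967717 to 72014761 of chromosome 2. Its GV peak was of another class, and the authors' deposited table gave a change of 0.99 (FDR 4e-88). HNRNPA2B1, a nuclear RNA-binding protein described as an m6A reader, had 4.89 at MII and 3.73 at GV. Its levels were 67.8, 63.2 and 59.8 FPKM in MII libraries and 75.2, 78.2 and 78.8 FPKM in GV libraries. The libraries do not overlap, and it fell by 0.28 (SE 0.054, limma adjusted p = 0.003).

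ACTR3B, a paralogue of the actin nucleator ARP3, had 4.81 at MII and 2.70 at GV, where the authors' FDR was 0.15. Its input level did not separate the stages, at 8.93, 9.42 and 8.92 FPKM in MII and 7.75, 9.38 and 10.1 FPKM in GV. The heart transcription factor gene TBX5 had 4.78 at a level of 2.04 ± 0.108 FPKM at MII (SD, n = 3). That was the lowest level of the 10 genes with the highest MII enrichments, followed by STXBP5 at 2.88 FPKM. PIP4K2B (a phosphoinositide kinase), CDH7 (a cadherin), BCLAF3, STXBP5 (which restrains vesicle fusion), TRIM52 and NSRP1 (of nuclear speckles) had 4.38 to 4.75. Of the 10 genes 5 had a stop codon peak at GV too. The list enrichments and the deposited change can differ in direction, and their intervals are not the same. PIP4K2B had 4.75 at MII and 4.38 at GV in the lists, and −1.39 in the authors' deposited table (FDR 1.7e-05).

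At GV the highest value was in ZNF184 (ENSBTAG00000011498), a zinc finger gene on the plus strand of chromosome 23, where the peak spanned 31174761 to 31184529 with an enrichment of 8.11 (authors' FDR 1.6e-90). At MII this gene had a peak of another class only. Its input level was 16.1, 13.9 and 11.4 FPKM in MII libraries and 16.6, 17.0 and 15.4 FPKM in GV libraries, which overlap, and limma gave an adjusted p of 0.11.

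SLC25A51, the mitochondrial NAD carrier on chromosome 8 (peak 61978322 to 61994835, minus strand), followed at GV with 7.38. It had 5 MII peaks, none over the stop codon, and 35.1, 34.5 and 36.6 FPKM in MII libraries, against 55.1, 58.3 and 57.8 FPKM in GV libraries. The 2 sets do not overlap, and the gene fell by 0.67 on the log2(FPKM + 1) scale (SE 0.048, limma adjusted p = 2.6e-05). DNAJB4, a co-chaperone of HSP70, had a stop codon peak at both stages, at 1.15 at MII and 7.24 at GV. The MII peak (chromosome 3, 66664210 to 66664387) lay inside the GV interval, which ended at 66666570. KBTBD7, an adaptor of cullin 3 ubiquitin ligases, had 2.12 at MII and 7.01 at GV over nearly the same interval of chromosome 12.

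Further down the GV list came the splicing factor PRPF38B at 6.92 and MESD, a chaperone of LRP receptors, at 6.67. MESD had 2.82 at MII and rose in input, with 101, 95.3 and 102 FPKM in MII libraries and 57.0, 53.7 and 51.6 FPKM in GV libraries. That is a rise of 0.87 (SE 0.051, limma adjusted p = 1.3e-05), with no overlap of the libraries. ZBTB2, CCDC92, GLCE (a heparan sulfate epimerase) and TOP3A (a DNA topoisomerase) completed the 10 highest, at 6.52, 6.51, 6.49 and 6.47. Of these 10 genes 4 had a stop codon peak at MII as well.

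Set against GV, differential stop codon peaks were lower at MII more often than higher, while the other classes leaned to higher. The authors' deposited table lists only peaks with a p under 0.05, so its direction carries more than the number of calls. At an FDR under 0.05 there were 666 of 697 stop codon peaks (95.6%) in the authors' deposited table, where 94.0% of all its peaks passed. Of these 296 were higher at MII and 370 lower, so that 44.4% of the called ones were higher. Over all peaks of the authors' deposited table, 63.0% were called higher and 31.0% lower, which is 67.0% higher among the called ones. The share among called peaks was 81.7% for start codons, 86.7% for the 5′ UTR, 55.8% for the 3′ UTR and 66.6% for other exonic peaks. The median change was −0.36 for stop codons and 1.03 for all peaks of that table. With a size of at least 1 on the log2 scale, 163 were higher and 223 lower. The split into higher and lower depends on where the authors' deposited table sets 0. Its peaks as a whole leaned to higher at MII, whereas list enrichments were higher at GV in 4321 of 5988 genes with any peak in both lists. The stop codon median lay below that of all its peaks, an order that a shift of 0 leaves unchanged.

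**Figure D3:**
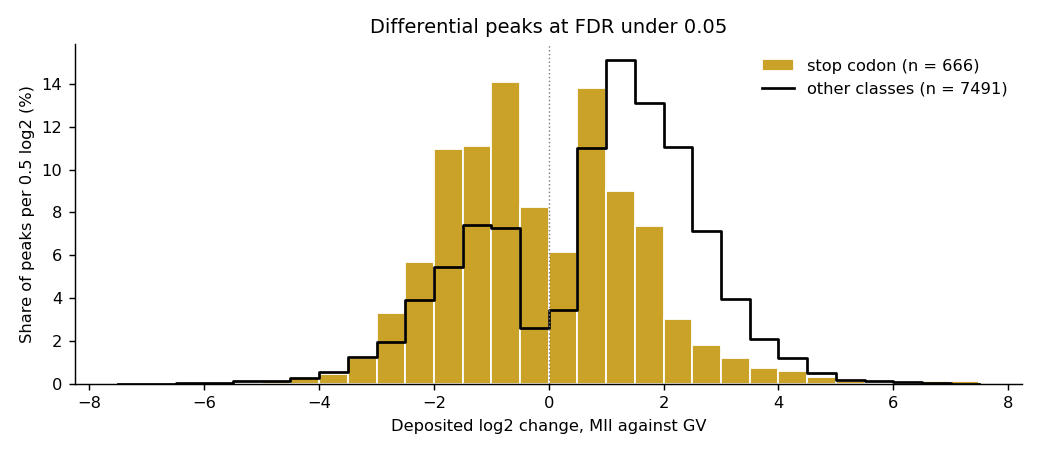
Distribution of the deposited log2 change of MII against GV among differential peaks at an FDR under 0.05, in bins of 0.5, for 666 stop codon peaks (bars) and 7491 peaks of the other classes (line), each as a percent of its own total. The stop codon bars divide into 370 peaks below 0 and 296 above it, and the line has more of its mass above 0.

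The strand moved with this direction. On the plus strand 215 stop codon peaks were higher at MII and 179 lower (54.6% higher), and on the minus strand 81 were higher and 191 lower (29.8% higher). Other exonic peaks had 75.9% higher on the plus strand and 56.3% on the minus strand, and 3′ UTR peaks 68.3% and 42.7%. At start codons the strands were alike, at 81.1% and 82.5%, and in the 5′ UTR they were at 85.6% and 88.2%. On each strand stop codons had the lowest share of the 5 classes.

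**Figure D4:**
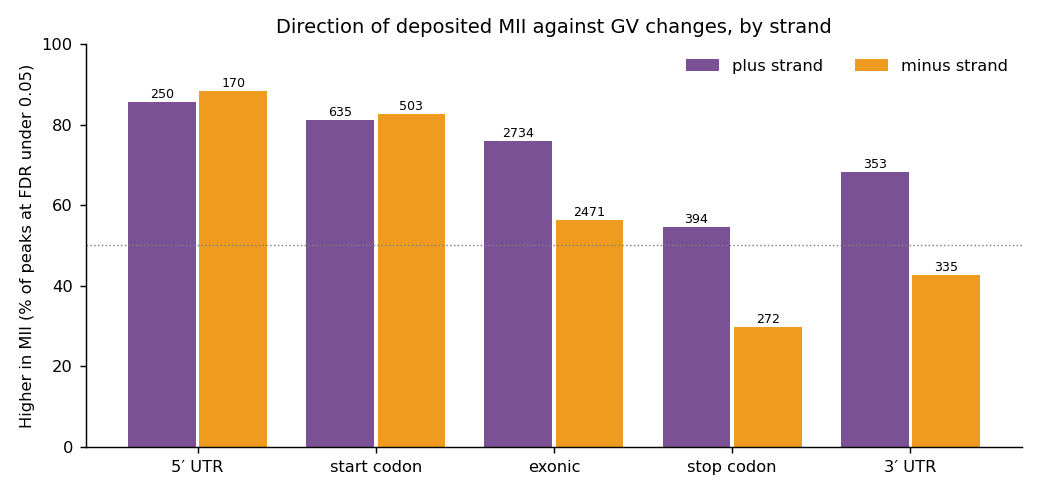
Share of differential peaks at an FDR under 0.05 that were higher at MII, in percent, by annotation class and strand (bars start at 0, the number above a bar is that of its peaks, dotted line at 50%). Stop codon peaks reached 54.6% on the plus strand and 29.8% on the minus strand, the lowest bar of the 5 classes on each strand.

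Direction also followed the list a peak came from. Where a differential peak overlapped a stop codon peak in both lists, 102 were higher at MII and 234 lower (30.4% higher). Where the MII list alone held one, 185 were higher and 13 lower, and where the GV list alone held one, 8 were higher and 122 lower. The lists and this table rest on the same libraries, so these counts are not separate evidence. Over 529 differential stop codon peaks that overlapped both lists, the authors' deposited table followed the difference of the 2 list enrichments at a Spearman coefficient of 0.778, given as a check of its direction.

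The 10 largest increases were all in genes with a stop codon peak at MII only, 9 had no GV peak of any class, and 9 lay on the plus strand. Among all 820 genes with a stop codon peak at MII only, 360 had no GV peak. PCNP (ENSBTAG00000015069), a nuclear PEST-containing protein gene on chromosome 1, had the largest change of the authors' deposited table among stop codons, 7.16 (FDR 7.9e-21). Its MII peak spanned 46001965 to 46015222 at an enrichment of 3.95. Its input level was lower at MII, at 8.93, 11.2 and 8.10 FPKM in MII libraries and 22.4, 25.0 and 24.8 FPKM in GV libraries. The libraries do not overlap, and the fall was 1.28 (SE 0.11, limma adjusted p = 6.9e-05). Peak changes and input changes share the input libraries, so the values of a gene are set side by side only.

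SIVA1, an apoptosis regulator on chromosome 21, had a change of 6.64 in the authors' deposited table (FDR 3.2e-13) and an MII enrichment of 1.89. Its input level rose by 0.48 (SE 0.095, limma adjusted p = 0.0034), with 47.4, 54.8 and 56.5 FPKM in MII libraries and 42.2, 37.1 and 33.9 FPKM in GV libraries. SEC11A, a subunit of signal peptidase, had 5.36 in the authors' deposited table and an input rise of 0.55 (SE 0.070, limma adjusted p = 0.00039). The transcription factor MLX had 4.52 and the phosphatase inhibitor PPP1R14C 4.51 in the authors' deposited table. PPP1R14C fell in input by 0.64 (SE 0.062, limma adjusted p = 0.0001), while MLX overlapped between the stages, at 17.0, 18.7 and 15.7 FPKM at MII and 18.5, 26.0 and 20.4 FPKM at GV. A larger peak change thus stood beside a higher, a lower or an overlapping input level. PEX19 (peroxisomal import), CIAO2A (iron-sulfur assembly), MKNK2 (which phosphorylates EIF4E), MAGOH (exon junction complex) and MRPL18 (mitochondrial ribosome) had 4.17, 4.12, 4.07, 4.02 and 3.90 in the authors' deposited table.

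The 10 largest decreases were in genes with a GV stop codon peak, 2 of which had an MII stop codon peak too. DAB1, the adaptor of reelin signalling on chromosome 3, had −4.55 in the authors' deposited table (FDR 4.7e-05), with enrichments of 2.28 at MII and 5.17 at GV. Its levels were 7.76, 6.15 and 6.63 FPKM in MII libraries and 8.16, 10.2 and 8.77 FPKM in GV libraries. They do not overlap, and its input change of −0.36 (SE 0.12, limma adjusted p = 0.031) lost its call without GV replicate 2 or 3, without MII replicate 2 or 3 and with a replicate block, at adjusted p-values between 0.012 and 0.10 over all alternatives.

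SYT17, of the synaptotagmin family, had −4.33 in the authors' deposited table and no MII peak of any class. CREB1, the cyclic AMP response transcription factor, had −3.66 in the authors' deposited table (FDR 0.015) and a GV enrichment of 4.56. Its levels were 8.43, 7.81 and 7.05 FPKM at MII and 8.55, 9.52 and 9.69 FPKM at GV, an input change of −0.23 that missed the threshold (SE 0.096, limma adjusted p = 0.073). SMAD1, which carries BMP signals, had −3.24 in the authors' deposited table (FDR 3.2e-27). It fell in input by 0.43 (SE 0.079, limma adjusted p = 0.0024), with 17.9, 16.0 and 18.0 FPKM in MII libraries and 22.4, 25.8 and 22.8 FPKM in GV libraries. INHBA, the inhibin and activin subunit and a granulosa cell marker, had −3.22 in the authors' deposited table at input levels of 1.25, 0.565 and 0.902 FPKM at MII and 1.05, 0.442 and 0.755 FPKM at GV. Those levels overlap and were below the minimum for testing.

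KLHL25, an adaptor of cullin 3 ligases, had 2 differential peaks in the authors' deposited table, at −3.33 and −3.04, the second inside the first. The kinases MAST4 (−3.70) and MARK2 (−3.63), FAM124B (−3.48) and the zinc finger gene ZBTB5 (−3.41) made up the rest of the 10 in the authors' deposited table. Input was low for FAM124B, at 1.68 FPKM at MII and 2.02 FPKM at GV, and for SYT17, at 2.78 and 2.50 FPKM. At −4.47, ENSBTAG00000016603, a gene without a symbol in the files, ranked between DAB1 and SYT17 in the authors' deposited table.

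Genes with a stop codon peak fell in input level more often than they rose. Of 2014 such genes tested, 1285 changed at a limma adjusted p under 0.05 (63.8%), where 60.8% of all 11739 tested genes did. Higher at MII were 584 (29.0%, against 32.0% of all tested genes) and lower were 701 (34.8%, against 28.8%). The median change was −0.05 for these genes and 0.01 for all tested genes. The balance over all tested genes depended on scaling, at 3761 higher and 3379 lower as deposited, 3304 and 3960 when libraries were scaled to a common median, 3255 and 3990 when quantiles were equalised, and 3191 and 3936 without mitochondrial genes. Changes of at least 1 were found in 99 that were higher (4.92%, against 8.90% of all) and in 28 that were lower (1.39%, against 3.15%). Their median input level was 20.9 FPKM at MII and 20.6 FPKM at GV, above the 10.7 FPKM and 10.1 FPKM of all tested genes. The part of this level in the counts was not tested.

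Which stage held the stop codon peak went with the balance of these calls. Peaks were called over the same input libraries that were tested here. The counts below are therefore not separate evidence of a link between peaks and input levels, which was not tested. Genes with one at MII only had 193 higher and 282 lower of 744 tested, genes with one at both stages 144 and 211 of 542, and genes with one at GV only 247 and 208 of 728. In percent of the tested genes that is 25.9 higher and 37.9 lower for MII only, 26.6 and 38.9 for both stages, and 33.9 and 28.6 for GV only. Of 7243 tested genes with peaks of other classes alone 31.6% were higher and 29.8% lower, and of 2482 with no peak 35.9% were higher and 21.0% lower. Genes whose differential stop codon peak was higher at MII had 80 higher and 124 lower inputs of 296 tested. Where that peak was lower at MII there were 102 higher and 141 lower of 368, so falls outnumbered rises in both sets.

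The largest rises started with genes of a few FPKM at GV. SPAG7 on chromosome 19 had 23.8, 23.5 and 32.8 FPKM in MII libraries and 1.66, 1.66 and 1.78 FPKM in GV libraries, a rise of 3.34 (SE 0.14, limma adjusted p = 2.5e-06). Its stop codon peak had an enrichment of 1.21 at MII (26438472 to 26438561) and 4.66 at GV (26434654 to 26438531). PKLR, a pyruvate kinase, had 18.7, 19.0 and 19.0 FPKM in MII libraries and 1.37, 2.17 and 2.08 FPKM in GV libraries (2.80, SE 0.13, limma adjusted p = 4.1e-06). SRR, the serine racemase, rose by 2.30 and had similar enrichments at the stages, 1.42 at MII and 1.19 at GV. For these genes every MII library was above every GV library, which was a condition of their choice.

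The ribosomal protein gene RPL28 had 209, 217 and 219 FPKM in MII libraries and 57.9, 51.8 and 49.0 FPKM in GV libraries (2.01, SE 0.062, limma adjusted p = 8.2e-07), with a stop codon peak at GV only. The complex III subunit UQCRQ had 210.3, 236 and 207 FPKM in MII libraries and 57.2, 54.1 and 59.5 FPKM in GV libraries (1.92, SE 0.061, limma adjusted p = 9e-07), with one at MII only. ATP5MK and ATP5MJ of the ATP synthase rose by 1.87 and 1.73, the mitochondrial ribosomal gene MRPS18C by 1.82, MAIP1 by 1.67 and C7H19orf53 by 1.92. Of these 10 genes 5 had no MII peak of any class, against 2 with no GV peak. Among all 2135 genes with a stop codon peak, 121 had no MII peak and 360 had no GV peak. The 10 genes were chosen by input, over which the peaks were called, so these counts are not separate evidence.

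Of the 10 largest falls 9 were in genes with a stop codon peak at MII, and 7 of the 10 had no GV peak of any class. Among all 2135 genes with a stop codon peak, 1374 had one at MII and 360 had no GV peak. The choice by input bears on these counts too. RNF7, a RING subunit of cullin ligases, had 1.65, 3.38 and 1.86 FPKM in MII libraries and 7.90, 11.3 and 12.5 FPKM in GV libraries (−1.83, SE 0.23, limma adjusted p = 0.00036). ITGB1, the integrin beta 1 subunit, had 74.7, 74.2 and 74.6 FPKM in MII libraries and 172, 171 and 175 FPKM in GV libraries (−1.20, SE 0.034, limma adjusted p = 6.5e-07). Its MII stop codon peak had an enrichment of 2.12, and its 2 GV peaks were of other classes. STRAP, of the SMN complex, had 29.3, 23.6 and 22.3 FPKM in MII libraries and 66.6, 71.4 and 66.6 FPKM in GV libraries (−1.42, SE 0.097, limma adjusted p = 2.3e-05).

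STRAP's differential peak was higher at MII by 2.35 in the authors' deposited table (FDR 3.2e-64). Carbonyl reductase (CBR1) fell by 1.47, NDFIP2, an adaptor of NEDD4 ligases, by 1.12 and LIN7C by 1.10. The subunit DBT of branched-chain keto acid dehydrogenase fell by 1.07, and the histone H3 gene H3C13 by 1.09. Histone H3 and ribosomal protein genes have near-identical copies, so their values are uncertain.

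**Figure D5:**
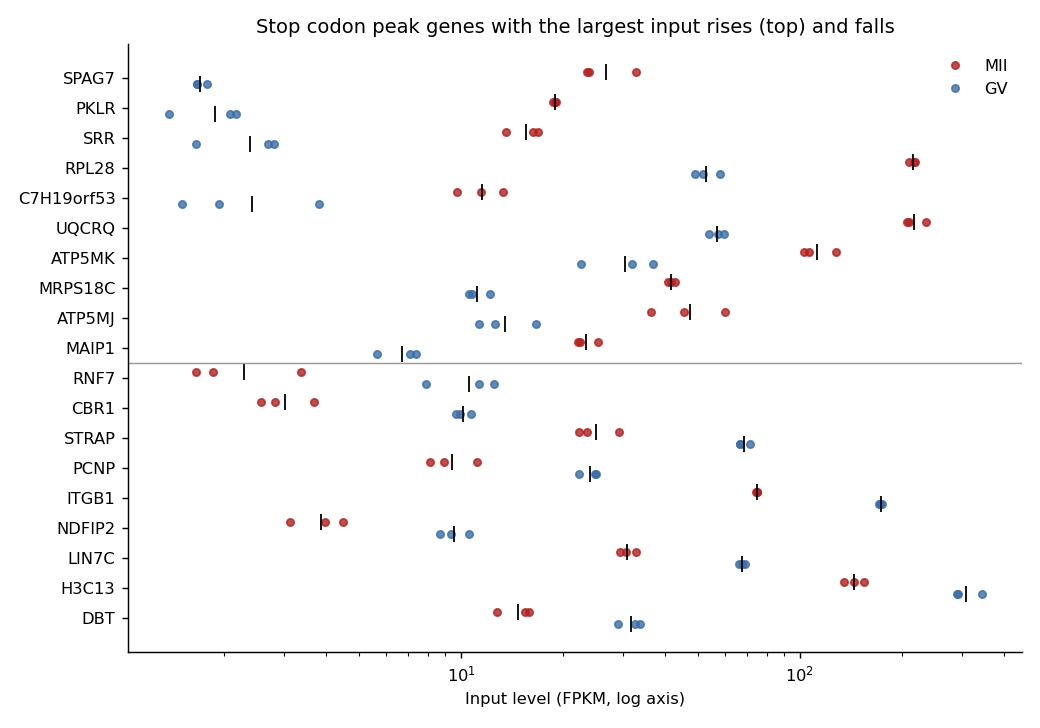
Input level in FPKM (log axis) of the 10 stop codon peak genes with the largest rises (above the line) and of 9 of the 10 with the largest falls (below it), MII points above GV points for each gene, 1 point per library and a tick at each mean (n = 3). The libraries of the stages do not overlap in any of the genes shown, which was a condition of their choice.

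The genes that write and read m6A carried stop codon peaks of their own. Of 9 writer genes tested, RBM15B, WTAP and METTL14 had one at GV, with enrichments of 3.77, 4.06 and 1.03, and none had one at MII. Over all tested genes 11.0% had a stop codon peak at MII and 10.8% at GV. WTAP had 31.4, 35.0 and 36.7 FPKM in MII libraries and 57.6, 57.6 and 58.8 FPKM in GV libraries, a fall of 0.74 (SE 0.062, limma adjusted p = 5.4e-05). METTL14 had 40.7, 37.9 and 38.9 FPKM in MII libraries and 28.1, 27.2 and 28.2 FPKM in GV libraries, a rise of 0.48 (SE 0.051, limma adjusted p = 0.00015). The adaptor WTAP and METTL14, the RNA-binding partner of the catalytic subunit METTL3, thus changed in opposite directions, and RBM15B overlapped between the stages. The whole list of 9 writers held 1 rise and 4 falls in input. Neither eraser had a stop codon peak.

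Of 13 reader genes tested, 7 had a stop codon peak at MII (53.8%, against 11.0% of all tested genes) and 5 at GV (38.5%, against 10.8%). The median input level of the reader list was 28.4 FPKM at MII and 39.2 FPKM at GV, above the 10.7 and 10.1 FPKM of all tested genes. The part of this level in the shares was not tested. HNRNPA2B1, FMR1, FXR1, YTHDF3 and IGF2BP3 had a stop codon peak at both stages, HNRNPC and YTHDC1 at MII only. FMR1, the fragile X protein, had 2.65 at MII and 3.52 at GV, its relative FXR1 0.77 and 2.50, the cytoplasmic reader YTHDF3 2.64 and 3.94, and IGF2BP3, which stabilises its targets, 2.04 and 3.66. In the authors' deposited table HNRNPC (0.75), FMR1 (0.66), YTHDC1 (0.59) and HNRNPA2B1 (0.29) were higher at MII and FXR1 (−1.25) lower. Input fell for 4 of the 7, HNRNPA2B1, HNRNPC, FMR1 and FXR1, and rose for none, while the whole list of 13 held 7 falls and 1 rise. FMR1 had 28.8, 27.4 and 29.0 FPKM in MII libraries and 39.4, 38.9 and 39.2 FPKM in GV libraries (−0.45, SE 0.048, limma adjusted p = 0.00016). FXR1 had 94.9, 92.5 and 94.1 FPKM in MII libraries and 126, 134 and 129 FPKM in GV libraries, again without overlap (−0.46, SE 0.039, limma adjusted p = 5.4e-05).

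Among genes that control mRNA decay and poly(A) tails 10 of 56 were found with a stop codon peak at MII and 5 of 56 at GV. That is 17.9% at MII and 8.93% at GV, against 11.0% and 10.8% of all tested genes. Their 11 members with one at either stage held 1 input rise, TOB1, which recruits deadenylases, and 6 falls, and the whole list of 56 held 14 rises and 23 falls. The deadenylases CNOT7 and CNOT8 fell by 0.45 and 0.58, with limma adjusted p-values of 0.0001 and 4.8e-05. CNOT7 had a peak at MII only and a change of 2.63 in the authors' deposited table (FDR 1.4e-07), and CNOT8 had 2.00 at MII and 2.59 at GV. The cap-binding gene EIF4E had 1.19 in the authors' deposited table, while TOB2, TENT5B and PABPC1, the poly(A)-binding protein gene, had −2.07, −1.61 and −1.50. Translational repressors DDX6 and PUM2 and the decay helicase UPF1 fell by 0.33, 0.27 and 0.35 (limma adjusted p = 0.013, 0.0062 and 0.0028). EIF4E is the sixth fall, and its call was lost in 7 of 15 alternatives, with adjusted p-values between 0.0079 and 0.11.

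Of 68 genes of meiosis and the cell cycle, 9 had a stop codon peak at MII (13.2%) and 6 at GV (8.82%). These shares were near the 11.0% and 10.8% of all tested genes. The 13 with one at either stage held 2 rises and 10 falls in input, and the whole list of 68 held 23 rises and 30 falls. SMC3, a core cohesin subunit, had 79.4, 67.4 and 70.7 FPKM in MII libraries and 146, 135 and 140.1 FPKM in GV libraries (−0.95, SE 0.065, limma adjusted p = 2.3e-05). Its stop codon peak was at MII only, at 2.85, with 1.14 in the authors' deposited table (FDR 0.0013). RAD21, a cohesin subunit, and the separase gene ESPL1 also had one at MII only and fell by 0.63 and 0.79 (limma adjusted p = 1.3e-05 and 3.1e-05). The libraries of the stages did not overlap in these 3 genes of sister chromatid cohesion.

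WEE2, the oocyte kinase that inhibits CDK1, had one at both stages, 2.28 at MII and 3.22 at GV. Its levels were 468, 459.9 and 460.3 FPKM in MII libraries and 563, 584 and 601 FPKM in GV libraries, a fall of 0.33 (SE 0.037, limma adjusted p = 0.00019). FBXO5, the inhibitor of the anaphase-promoting complex, had one at MII only, a change of 1.80 in the authors' deposited table (FDR 1e-100) and an input fall of 0.41 (limma adjusted p = 0.00078). ENSA, an inhibitor of PP2A, had one at GV only and rose by 0.63 (SE 0.055, limma adjusted p = 6.3e-05). CCNE2, SGO1, TPX2, ANAPC7 and SGO2 were the other falls and AURKA the other rise. ANAPC7, SGO2 and AURKA lost their calls in 5, 3 and 6 of 15 alternatives, with adjusted p-values of up to 0.09, 0.065 and 0.44.

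Among 28 oocyte and maternal effect genes 4 had a stop codon peak at MII (14.3%) and 3 at GV (10.7%). All tested genes had shares of 11.0% and 10.8%. GDF9, the growth factor by which the oocyte acts on its follicle, had one at both, 1.66 at MII and 2.99 at GV, and a change of −1.05 in the authors' deposited table (FDR 1e-104). Its levels were 253, 255 and 254 FPKM in MII libraries and 158, 163 and 169.5 FPKM in GV libraries, a rise of 0.63 (SE 0.037, limma adjusted p = 1.2e-05). The zona pellucida gene ZP4, with one at GV only, had 379, 391 and 373 FPKM in MII libraries and 196, 208 and 206 FPKM in GV libraries (0.90, SE 0.038, limma adjusted p = 3e-06). OOSP2, an oocyte-secreted protein gene with one at MII only, fell by 1.06 (SE 0.052, limma adjusted p = 5.8e-06), as did the germ cell transcription factor SOHLH2, by 0.54 (SE 0.048, limma adjusted p = 6.9e-05). DPPA3, which protects maternal chromatin, had one at MII only and overlapping levels of 286, 257 and 269 FPKM at MII and 267, 288 and 284 FPKM at GV. WBP1L, with one at GV only, was the remaining rise and lost its call in 7 of 15 alternatives, at adjusted p-values between 0.013 and 0.081. The 6 members with one at either stage held 3 rises and 2 falls in input, and the whole list of 28 held 17 rises and 5 falls.

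Chromatin regulators had the larger count at GV, with 5 of 64 at MII and 11 of 64 at GV, against 11.0% and 10.8% of all tested genes. The histone acetyltransferase KAT6B had 3.34 at MII and 6.11 at GV, and its relative KAT6A, with one at GV only, 6.42. In the authors' deposited table they changed by −0.80 (FDR 1e-120) and −2.91 (FDR 6.3e-14). The histone methyltransferase KMT5B and the demethylase KDM5A had −1.63 and −1.58 in the authors' deposited table, and the remodeller SMARCA4, with one at MII only, had 1.37 (FDR 1.9e-07). KDM5A fell in input, with 12.0, 11.6 and 10.6 FPKM in MII libraries and 17.2, 19.3 and 18.2 FPKM in GV libraries (−0.64, SE 0.078, limma adjusted p = 0.00031). The 12 members with one at either stage held 4 rises and 4 falls in input (15 and 23 in the whole list), of which ARID1A, KAT6B and KAT6A lost their calls in 9, 1 and 4 of 15 alternatives (adjusted p-values of up to 0.38, 0.076 and 0.073).

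Zinc finger genes of the C2H2 kind, taken by symbol, were the largest group. Of 238 tested, 38 had a stop codon peak at MII (16.0%, against 11.0% of all tested genes) and 42 at GV (17.6%, against 10.8%), and 23 at both. Their median input level was 7.77 FPKM at MII and 7.80 FPKM at GV, below that of all tested genes. The authors' deposited table called 18 stop codon peaks of these genes lower at MII and 1 higher, ZNF629 at 0.61. Of all its called stop codon peaks 370 were lower and 296 higher, and of its called peaks of any class 2689 were lower and 5468 higher. After ZBTB5 (−3.41), the largest decreases in the authors' deposited table were those of ZNF200 (−2.81), ZKSCAN5 (−2.64), ZNF879 (−2.60) and ZNF234 (−2.02). ZNF234 had 3.73 at MII and 6.33 at GV, and ZNF879 2.70 and 5.39. ZBTB43, at 3.01 at MII and 4.90 at GV over the same interval of chromosome 11 (97584412 to 97609829), had −0.71 in the authors' deposited table. Input levels of the 57 members with one at either stage rose in 13 and fell in 21, and those of the whole list of 238 rose in 71 and fell in 73. Of the 34 calls among these members, 12 were lost in at least 1 alternative. Many zinc finger genes are paralogues that share sequence, so reads may be split between them.

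Ribosomal protein and respiratory chain genes with a stop codon peak mostly rose in input. Of 80 ribosomal protein genes 6 had one at MII and 6 at GV (7.50% each). Of 75 respiratory chain genes 7 had one at MII (9.33%) and 4 at GV (5.33%). The shares of all tested genes were 11.0% at MII and 10.8% at GV. Of the members with one at either stage, 9 of 10 ribosomal and 9 of 10 respiratory genes rose in input and none fell. RPL26L1 and COX7B lost their calls in 5 and 10 of 15 alternatives, at adjusted p-values of up to 0.089 and 0.14. RPL19 had 261, 252 and 257 FPKM in MII libraries and 101, 104 and 103 FPKM in GV libraries, a rise of 1.31 (SE 0.035, limma adjusted p = 5e-07). NDUFB9, of complex I, had 163, 155 and 170.0 FPKM in MII libraries and 53.2, 65.4 and 61.8 FPKM in GV libraries, a rise of 1.43 (SE 0.077, limma adjusted p = 8.8e-06). The whole lists rose alike, with 69 of 80 ribosomal and 64 of 75 respiratory genes higher, a share close to that of the members. In the authors' deposited table RPL26L1 (2.05), RPS21 (1.25), RPS24 (1.24), RPL19 (1.01) and RPL21 (0.68) were higher at MII and RPL7A (−0.44) lower, and ATP5PF (3.58), UQCRQ (1.99) and NDUFB9 (0.92) were higher.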

How the data were processed

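Bovine oocyte libraries, 3 input and 3 immunoprecipitated at each of MII and GV, were grouped by title. Fragments of poly(A) RNA were pulled down with an m6A antibody, and libraries kept the strand through uracil in the second strand, per the labels' protocols. HOMER 4.10, edgeR 4.1, StringTie 2.1.2, HISAT2 2.0.4 and fastp 0.19.4 are named in the submitters' processing notes, without their roles. The build, the peak caller, how libraries were pooled and the read totals were not given in the sources used here, so the depth behind a value is unknown.

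Expression values are FPKM per gene and library as the authors deposited them. Enrichments and changes of peaks are log2 values as deposited by the authors, and so are their p-values and FDR. The largest listed p was 0.049 in each peak table. Peak starts count from 0 in the files and are printed counting from 1.

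Input was tested with limma 3.58.1 (R 4.3.3, lmFit and eBayes with a trend, both sides) on log2(FPKM + 1), which understates changes of low genes. Genes averaging 1 FPKM or more entered, with Benjamini-Hochberg adjustment at 0.05 over all of them. The fit was tested on simulated data. Peaks were counted in Python 3.11.15, with exact 95% intervals from SciPy 1.17.1. Peaks of at most 250 bp are called narrow.

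Genes were named by rule, as the 10 highest enrichments per stage (FDR under 0.05, at least 1 FPKM), the 10 highest and 10 lowest differential peaks, the 10 largest rises and falls of input (mean of at least 5 FPKM, libraries not overlapping), and members of 10 gene lists. Gene families were taken by symbol, and 1 of the 10 falls is not reported here. The members and lists were chosen with earlier results of these data known. ENSBTAG00000016603 and genes with over 1 peak were named after their values were seen. Same-numbered libraries of the stages did not deviate together (r of −0.0547, −0.0603 and 0.0128), so no pairing was used. Alternatives were other pseudocounts, filters, scalings, thresholds and overlaps, and each library left out. No genome sequence was used here, so no motif was searched.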

Additional observations from a re-analysis of the deposited data

How the results depend on the processing

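Falls outnumbered rises of input among genes with a stop codon peak in the main fit (584 higher, 701 lower) and in all 15 alternatives to the fit. Leaving out 1 library gave 504 to 534 higher and 622 to 660 lower, median scaling 486 and 842, quantile normalization 505 and 806, and removal of mitochondrial genes 465 and 836. The replicate block, which the check of pairing did not favour, gave 552 and 669. Genes with a stop codon peak at both stages gave 144 and 211. Over all tested genes the main fit had 32.0% higher and 28.8% lower. Leaving out 1 library gave 28.5% to 30.1% higher and 24.4% to 26.6% lower of all tested genes. For all of them, median scaling gave 28.1% and 33.7%, quantile normalization 27.7% and 34.0%, and removal of mitochondrial genes 27.3% and 33.7%. Under these scalings the balance of all tested genes thus also turned to falls. Differential stop codon peaks kept more lower than higher ones with changes of at least 1 (163 higher, 223 lower), in narrow peaks (34 and 56) and where both lists held one (102 and 234). The share of peaks over stop codons was 6.71% at MII and 10.1% at GV at an FDR under 0.05, 4.31% and 6.26% in narrow peaks, and 7.58% and 12.0% above each list's median enrichment. With the MII list reduced to its most significant peaks, equal in number to the GV list, the MII share was 7.62%. Medians of enrichment fell to 1.42 at MII and 2.33 at GV in narrow peaks, and the GV median was 3.14 at an FDR under 0.05. Overlap with the other stage was 29.3% of MII and 32.8% of GV stop codon peaks at a reciprocal overlap of 50%, 40.3% and 42.1% against stop codon peaks alone, 36.9% and 39.6% in narrow peaks, and 70.8% of GV peaks at an FDR under 0.05 in both lists. Stop codons held a smaller share of peaks at MII than at GV in each of these settings. The cause of these shifts was not tested. Of 129 named genes called in input, 100 kept their call in all 15 alternatives. Precision is limited by 3 input libraries per stage and 1 peak list per stage.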
